A study of Mus musculus with 19 samples.

Results

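Lysozymes, chitinase-like lectins, small protease inhibitors of the whey acidic protein (WAP) fold and a resistin-like hormone are among the secreted proteins with which myeloid cells act on microbes and on the tissue around them. The 8 genes described here were chosen by name, with earlier results of these data known. They are the lysozymes Lyz2 and Lyz1, the chitinase-like genes Chil3 and Chil1, the WAP inhibitors Slpi, Wfdc17 and Wfdc21, and the resistin-like gene Retnlg. All 8 had a row among the 50854 genes of the count table, and all 8 passed the filter that left 18652 genes for testing.

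The counts came from bulk RNA-seq of cells from the bone marrow of female REP mice aged 8 to 12 weeks, which in every group carried fluorescent reporters for inflammatory chemokine receptors, including CCR1 and CCR2. Cells that were CD11b+, Ly6C high, Ly6G- and SiglecF- were sorted as CCR2+ve or CCR1/2+ve (both receptors). Resting mice gave 4 libraries of CCR2+ve and 4 of CCR1/2+ve monocytes. Inflamed mice, infused with IL-3, IL-6, GM-CSF and IFN-α by implanted pumps, gave 4 libraries of CCR2+ve monocytes, 3 of CCR1/2+ve monocytes (replicates 2, 3 and 4) and 4 labelled only CCR1, for which no gate is described in the sources used here. Reads on genes ranged from 22268658 to 30502009 per library, and values below are read counts normalised for library size with TMM over the 19 libraries (CPM), so 1 read was worth between 0.0306 and 0.05 CPM.

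The libraries labelled inflamed CCR1 went against their cell type label of monocytes. Ccr2 was at 4.05 to 9.58 CPM in them against 1075 to 1368 CPM in inflamed CCR2+ve libraries. The summed level of 11 monocyte markers was 1748 to 1817 CPM in them, against 13407 to 14652 in inflamed CCR2+ve, 13485 to 17950 in inflamed CCR1/2+ve, 8238 to 10523 in resting CCR1/2+ve and 10737 to 13633 in resting CCR2+ve libraries. Against inflamed CCR2+ve libraries 9 of the 11 were lower past both cutoffs and 0 higher. Ly6c2, the largest term of their sum, overlapped (1366 to 1484 against 1246 to 2097 CPM). Itgam was close (77.6 to 102 against 108 to 121 CPM). The largest term in inflamed CCR2+ve libraries was F13a1 (7577 to 8844 CPM, against 191 to 304). The summed level of 11 neutrophil markers was 103885 to 152052 CPM in them, against 1807 to 2061 in inflamed CCR2+ve, 3091 to 3616 in inflamed CCR1/2+ve, 2676 to 3322 in resting CCR1/2+ve and 936 to 1292 in resting CCR2+ve libraries. Ngp alone was at 69722 to 100770 CPM in them. Against inflamed CCR2+ve libraries 9 of these 11 markers were higher past both cutoffs and 1 lower, Mmp8 (5.18 to 12.2 against 934 to 1132 CPM). In that comparison 31.3% of all genes passed both cutoffs. The summed level of 5 early granule genes, among them Elane and Mpo, was 55118 to 61848 CPM in them and 351 to 629 CPM in inflamed CCR2+ve libraries. By the monocyte and neutrophil sums no other library stood apart from its group. Results without the CCR1-labelled libraries are those between the other 4 groups, which were fitted without them. In bulk RNA, fewer cells of a type and less RNA per cell cannot be told apart.

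Lysozyme cleaves the peptidoglycan of bacterial cell walls. Mice carry a pair of neighbouring lysozyme genes, of which Lyz2 (lysozyme M) is the form of macrophages and neutrophils and Lyz1 (lysozyme P) is known from the Paneth cells of the intestine. Chil3 (also called Ym1) and Chil1 (the mouse counterpart of human YKL-40) are lectins related to chitinases that have lost the catalytic activity, known from macrophages and from developing and mature neutrophils. Slpi inhibits neutrophil elastase and cathepsin G, and Retnlg is a resistin-like protein known from the bone marrow and from neutrophils.

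Lyz2 (ENSMUSG00000069516, GRCm38 chr10:117277331-117282321, minus strand) and Lyz1 (ENSMUSG00000069515, chr10:117287797-117292868, minus strand) lie 5475 bases apart. Their coding sequences were identical at 422 of 444 bases (95.0%), and 28.4% of the 35-base stretches of Lyz2 exons and 29.6% of those of Lyz1 exons occurred in the other gene. Sequencing was paired-end, and a read pair lying wholly in such stretches would align to more than 1 place and be dropped by the authors' counting. How many pairs were lost was not measured. The 250 bases before the RefSeq start of each gene (build GRCm38.p6) are shown because the results for the pair parted, with matches to the letters AGGAAG (the core bound by PU.1) and TTGCNNAA (a C/EBP motif), on either strand, in capitals. The Lyz2 stretch lies at chr10:117282273-117282522 and that of Lyz1 at chr10:117292869-117293118, both on the minus strand. The end of the Lyz2 stretch nearest the start runs into the gene span given above, which is from GENCODE M21.
Lyz2 upstream: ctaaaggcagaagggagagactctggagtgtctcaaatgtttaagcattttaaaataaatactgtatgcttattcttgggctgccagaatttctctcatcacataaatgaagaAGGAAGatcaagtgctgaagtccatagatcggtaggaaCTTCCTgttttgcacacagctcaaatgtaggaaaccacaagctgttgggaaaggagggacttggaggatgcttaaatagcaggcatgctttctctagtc
Lyz1 upstream: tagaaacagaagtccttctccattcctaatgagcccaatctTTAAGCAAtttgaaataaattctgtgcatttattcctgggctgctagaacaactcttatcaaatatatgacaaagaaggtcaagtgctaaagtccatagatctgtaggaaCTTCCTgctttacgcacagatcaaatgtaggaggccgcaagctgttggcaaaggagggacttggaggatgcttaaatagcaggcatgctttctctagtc
These upstream stretches were identical at 200 of 248 aligned bases (80.6%). Both held AGGAAG on the opposite strand, at −99 to −94 from the start. Lyz2 held it once more at −137 to −132, and Lyz1 held TTGCNNAA at −209 to −202. Of 32851 mouse promoters in the same window, 29.5% held AGGAAG and 9.56% held TTGCNNAA.

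Chil3 (ENSMUSG00000040809, chr3:106147554-106167564, minus strand) and Chil1 (ENSMUSG00000064246, chr1:134182176-134190181, plus strand) are on different chromosomes, and their coding sequences were identical at 692 of 1084 aligned bases (63.8%). Chil3 was closer to Chil4, a second chitinase-like gene (95.4% of 1194 aligned bases), and 38.1% of the 35-base stretches of its exons occurred in other genes, Chil4 foremost. For Chil1 that share was 0.0%. The upstream stretches of this pair are shown because their levels ran in opposite directions between resting and inflamed cells, with AGGAAG and TTCNNNGAA (the GAS motif bound by STAT factors) in capitals. Chil3 lies at chr3:106167565-106167814 on the minus strand and Chil1 at chr1:134181906-134182155 on the plus strand.
Chil3 upstream: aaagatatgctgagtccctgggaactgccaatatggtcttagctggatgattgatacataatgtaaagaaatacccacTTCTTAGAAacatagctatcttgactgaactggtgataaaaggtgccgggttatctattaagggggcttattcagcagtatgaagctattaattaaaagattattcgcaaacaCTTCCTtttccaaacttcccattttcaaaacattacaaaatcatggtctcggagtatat
Chil1 upstream: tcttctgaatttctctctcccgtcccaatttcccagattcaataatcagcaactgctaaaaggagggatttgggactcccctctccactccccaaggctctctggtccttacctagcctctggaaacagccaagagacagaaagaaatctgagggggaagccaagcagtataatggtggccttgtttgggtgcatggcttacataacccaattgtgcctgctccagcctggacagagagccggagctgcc
Chil3 held AGGAAG at −59 to −54 and TTCNNNGAA at −172 to −164, the latter found in 7.02% of the promoters. Chil1 held none of the 5 motifs searched, which also included GAAA repeated after 2 free bases (the interferon response motif, in 2.98% of promoters) and TATAAA (in 12.4%). The last pair were found in 0 of the 7 members with a RefSeq promoter. Of the remaining members, Slpi held TTGCNNAA at −241 to −234, Retnlg at −246 to −239, and Wfdc17 held AGGAAG at −40 to −35. RefSeq and GENCODE M21 place the starts of Slpi and Wfdc17 differently. The Slpi stretch (chr2:164356508-164356757) lies wholly inside the GENCODE gene span given below. The Wfdc17 stretch (chr11:83703806-83704055) runs into its span, and the match lies inside it. A match of letters is a description of the sequence only.

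Slpi (ENSMUSG00000017002) lies at chr2:164354070-164389095 on the minus strand, Wfdc17 (ENSMUSG00000069792) at chr11:83703991-83706268 and Wfdc21 (ENSMUSG00000051748) at chr11:83746940-83752642, 40671 bases further along the plus strand. Retnlg (ENSMUSG00000022651) lies at chr16:48872621-48874496 on the plus strand. Retnlg shared 4.11% of its 35-base stretches with Retnla, and Slpi, Wfdc17 and Wfdc21 shared none with another gene.

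Together the 8 genes took up 4.57% to 6.03% of all reads on genes in the resting libraries, 3.39% to 4.33% in the inflamed libraries of either monocyte population, and 2.28% to 2.76% in those labelled inflamed CCR1. Per kilobase of exon, the levels in resting CCR2+ve monocytes ranked as Lyz2 at 27612 CPM, Chil3 at 7821, Wfdc17 at 545, Slpi at 259, Lyz1 at 24.4, Wfdc21 at 1.85, Retnlg at 0.375 and Chil1 at 0.0745. The same scale gave, for the libraries labelled inflamed CCR1, Chil3 first at 10228 CPM, Lyz2 at 6289, Wfdc21 at 569, Chil1 at 272, Slpi at 102, Retnlg at 38.5, Wfdc17 at 2.86 and Lyz1 at 1.67. Chil1 thus stood last in one group and above Slpi in the other, and Wfdc17 stood next after Chil3 in one and above only Lyz1 in the other.

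**Figure D1:**
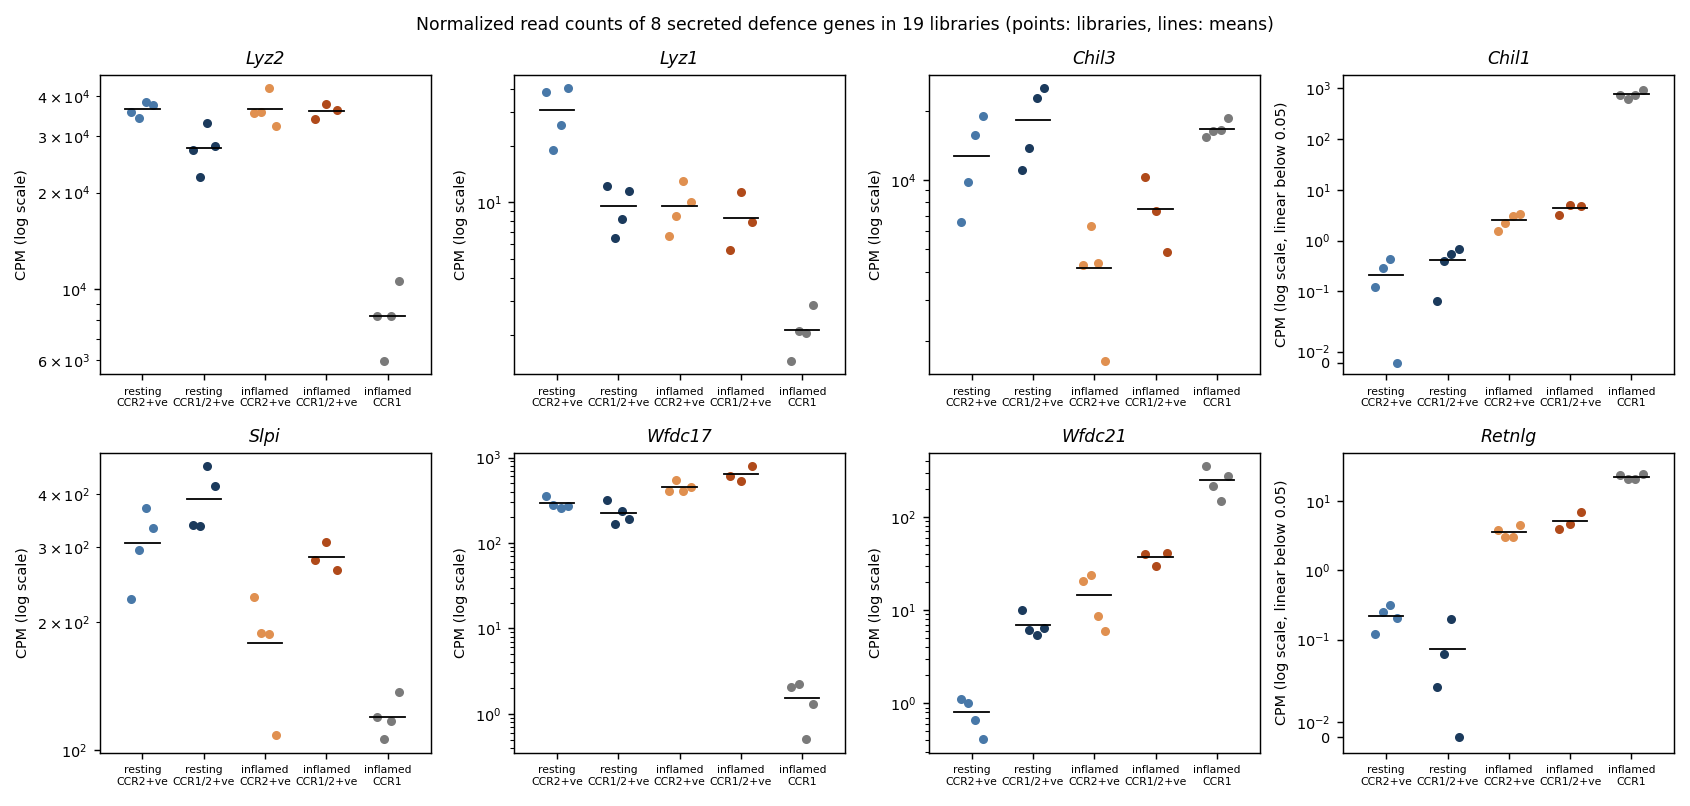
CPM of each of the 8 genes (log scale, each panel with its own range) in the 19 libraries, by group, with a point for each library and a line at the group mean. Lyz2, Lyz1 and Wfdc17 were lowest in the libraries labelled inflamed CCR1, and Chil1, Wfdc21 and Retnlg were highest there.

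The groups were compared over all 18652 genes by edgeR (quasi-likelihood F test, Benjamini-Hochberg adjusted p). A gene passed the p cutoff when its adjusted p was below 0.05, and both cutoffs when it also differed by 1 log2 or more. Between resting CCR1/2+ve and resting CCR2+ve monocytes 2 of the 8 genes passed both cutoffs (Wfdc21 higher, Lyz1 lower), where 4.25% of all genes did, and 3 of 8 had an adjusted p below 0.05, where 16.9% of all genes did. Between inflamed and resting CCR2+ve monocytes 5 of 8 passed both (3 higher, 2 lower; 28.6% of all genes) and 7 of 8 the p cutoff (47.8%). Between inflamed and resting CCR1/2+ve monocytes 5 of 8 passed both (4 higher, 1 lower; 28.5%) and 6 of 8 the p cutoff (46%). These shares of the members were above the background in every one of these comparisons, with only 8 genes behind each. They are no test of the members as a set, since these were chosen with earlier results of these data known. The background also takes in genes with few reads. The comparisons are not independent of each other, since each group entered more than 1 of them.

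Between inflamed CCR1/2+ve and inflamed CCR2+ve monocytes 0 of 8 passed by edgeR, where 0.145% of all genes passed both cutoffs and 0.188% the p cutoff. There 4 of 8 had an unadjusted p below 0.05, a count without a baseline, as the share of all genes at that cutoff was not computed. DESeq2 called 1 member past both cutoffs, Wfdc21, and 106 of all genes. The libraries labelled inflamed CCR1 differed from inflamed CCR2+ve ones in 7 of 8 members by both cutoffs (31.3% of all genes) and in 8 of 8 by the p cutoff (48.1%). From inflamed CCR1/2+ve libraries they differed in 8 of 8 by both cutoffs (27.7%), and 43.2% of all genes passed the p cutoff. The median log2 fold change of the members stood beside that of all genes at 0.07 and 0.03 in the resting comparison, at 0.24 and −0.10 for inflamed against resting CCR2+ve, and at 0.81 and −0.25 for inflamed against resting CCR1/2+ve.

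**Figure D2:**
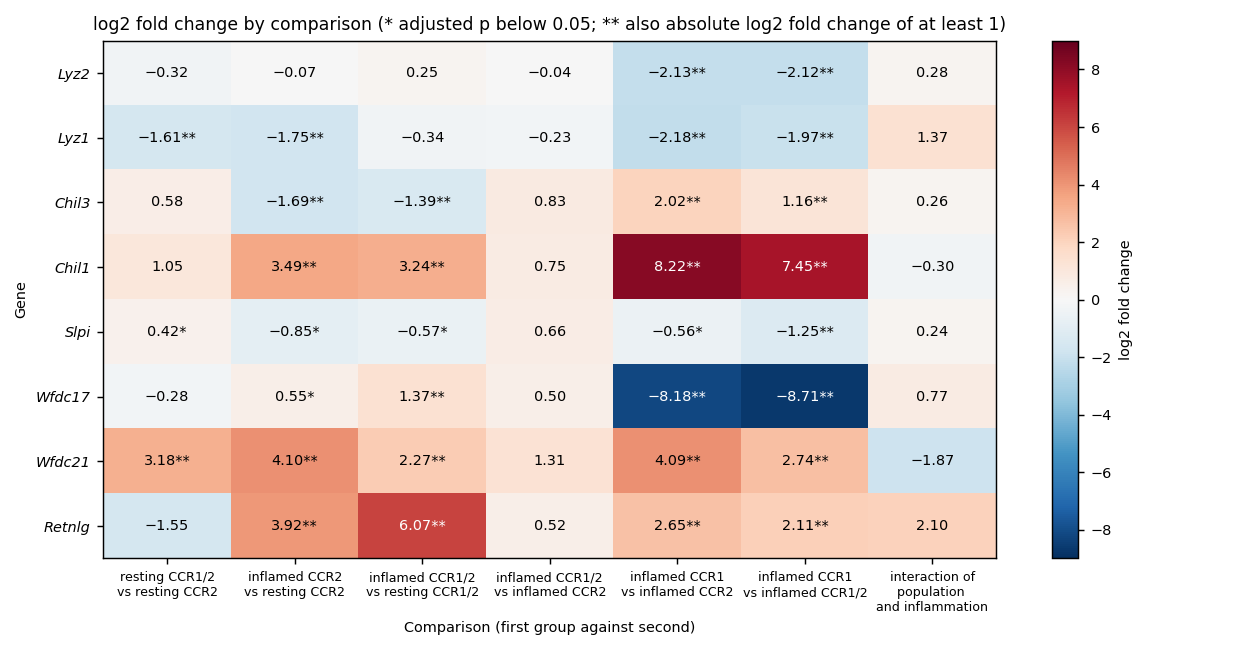
log2 fold changes of the 8 genes (rows) in the 6 comparisons of groups and in the interaction of population and inflammation (columns), with colour from −9 to 9, a star for an adjusted p below 0.05 by edgeR, and a pair of stars where the change was also 1 log2 or more in size. The column of inflamed CCR1/2+ve against inflamed CCR2+ve carries no star, and the columns of the CCR1-labelled libraries carry one or a pair in every row.

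Lyz2 was the most abundant member in both monocyte populations, resting or inflamed. It stood at 35587, 34131, 38170 and 37464 CPM in resting CCR2+ve replicates 1 to 4 and at 27214, 22288, 32888 and 27937 CPM in resting CCR1/2+ve replicates. These groups did not overlap (exact two-sided permutation test, p = 0.0286, the smallest that 4 against 4 libraries allow), but the difference of −0.32 log2 (SE 0.104) just missed the cutoff in edgeR (adjusted p = 0.0506). With the replicate number as a block it passed, at −0.33 log2 (SE 0.0512, adjusted p = 0.000125), and the CCR1/2+ve library held 0.765, 0.653, 0.862 and 0.746 of the level in the CCR2+ve library of the same number. No source used here states that resting libraries of the same number belong together. The pairing was inferred from correlations among these same libraries. The Lyz2 difference also passed in other fits without the block. These were the fits without resting CCR1/2+ve replicate 3 (adjusted p = 0.0192), with RLE size factors (0.0333), without the filter on low counts (0.0302), with filterByExpr (0.0274) and in DESeq2 (0.0032).

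With inflammation Lyz2 stayed within its replicate spread in CCR2+ve monocytes, at 35499, 35698, 42275 and 32111 CPM, a difference of −0.07 log2 (SE 0.0958, adjusted p = 0.594). In inflamed CCR1/2+ve monocytes it stood at 33844, 37599 and 36138 CPM, above all 4 resting libraries of that population, with a difference of 0.25 log2 (SE 0.101) that missed the cutoff (adjusted p = 0.0592). That value passed without resting CCR1/2+ve replicate 3 (0.33 log2, adjusted p = 0.0141), and the median of all genes in this comparison was −0.25 log2. The mean of inflamed CCR1/2+ve was 35861 ± 1893 CPM (SD, n = 3) and that of inflamed CCR2+ve 36396 ± 4251 (n = 4), and these groups overlapped. In the order of means, inflamed CCR2+ve, resting CCR2+ve and inflamed CCR1/2+ve could not be told apart by range. Resting CCR1/2+ve came next and overlapped only inflamed CCR2+ve, whose replicate 4 lay under resting CCR1/2+ve replicate 3.

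Among the CCR1-labelled libraries Lyz2 was at 8264, 5989, 8226 and 10629 CPM, far under each of the other 15 libraries. It fell by 2.13 on the log2 scale (SE 0.148, adjusted p = 3.59e-09) against inflamed CCR2+ve, or 4.39-fold. Among the 8 members Lyz2 still came second per base in these libraries, after Chil3, while the Csf1r transcript of the monocyte growth factor receptor was at 13.7 to 24.1 CPM against 1384 to 1743 CPM in inflamed CCR2+ve libraries.

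Lyz1 was a minor transcript beside Lyz2, and it fell with inflammation in CCR2+ve monocytes, where Lyz2 stayed level within its spread. It stood at 38.5, 18.9, 25.7 and 40.3 CPM in resting CCR2+ve libraries (531 to 969 reads) and at 12.3, 6.48, 8.19 and 11.4 CPM in resting CCR1/2+ve libraries (209 to 374 reads), with no overlap. The CCR1/2+ve libraries were thus lower by 1.61 log2 (−1.61, SE 0.249, adjusted p = 0.00107), 3.05-fold, and the ratio to the CCR2+ve library of the same number was between 0.284 and 0.342 in all 4 pairs. With inflammation Lyz1 fell in CCR2+ve monocytes to 6.64, 8.46, 13.1 and 10.1 CPM, a decrease of 3.37-fold (−1.75 log2, SE 0.245, adjusted p = 2.59e-05) without overlap. In inflamed CCR1/2+ve monocytes it was at 5.57, 11.3 and 7.90 CPM, overlapping the resting CCR1/2+ve libraries (−0.34 log2, SE 0.279, adjusted p = 0.351).

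Resting CCR2+ve monocytes alone held the high level of Lyz1, and the means of resting CCR1/2+ve (9.59 CPM), inflamed CCR2+ve (9.57 CPM) and inflamed CCR1/2+ve (8.26 CPM) overlapped. The change with inflammation differed between the populations by 1.37 log2 (SE 0.406), which did not pass in edgeR (adjusted p = 0.153, unadjusted p = 0.00351) and passed in DESeq2 (1.43 log2, adjusted p = 0.0211). The CCR1-labelled libraries held Lyz1 at 1.46, 2.08, 2.03 and 2.87 CPM (32 to 61 reads), below every other library, a fall of 4.53-fold against inflamed CCR2+ve (−2.18 log2, SE 0.262, adjusted p = 2.26e-06). Per 1000 reads on Lyz2, 0.555 to 1.08 were counted on Lyz1 in resting CCR2+ve libraries, 0.249 to 0.451 in resting CCR1/2+ve, 0.187 to 0.315 in inflamed CCR2+ve, 0.165 to 0.300 in inflamed CCR1/2+ve and 0.176 to 0.347 in those labelled inflamed CCR1. Whether some Lyz1 reads were Lyz2 reads with mismatches was not tested.

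Chil3 was the second member by level in both monocyte populations and differed widely among replicates. In resting CCR2+ve libraries it stood at 6575, 9827, 15631 and 19022 CPM, and in resting CCR1/2+ve libraries at 11022, 13815, 22744 and 25045 CPM. The groups overlapped, and without pairing the difference of 0.58 log2 (SE 0.35) did not pass (adjusted p = 0.322). Libraries of the same replicate number went together, however: replicates 3 and 4 were above replicates 1 and 2 in both populations, and the CCR1/2+ve library was 1.68, 1.41, 1.46 and 1.32 times its partner. With the replicate number as a block Chil3 was higher in CCR1/2+ve monocytes by 0.62 log2 (SE 0.0512, adjusted p = 2.20e-07), an SE as small as that of Lyz2 and the smallest of the 8 genes in this fit. That p-value depends on a pairing that was inferred from these same libraries and is not stated in the labels.

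With that block 6 of 8 members passed the p cutoff in the resting comparison (3 higher, 3 lower), where 25.6% of all genes did. Past both cutoffs were again Wfdc21 and Lyz1. Without the block, cell type markers also differed past both cutoffs in CCR1/2+ve libraries. All 5 early granule genes were higher. Of 11 neutrophil markers 4 were higher and 0 lower, and of 10 tissue macrophage markers 4 were higher and 2 lower. Of 6 dendritic cell markers 4 were lower and 0 higher (sums of 33.8 to 115 against 217 to 594 CPM). Of 11 monocyte markers 2 were lower and 0 higher. Their part in the members' differences was not tested.

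**Figure D3:**
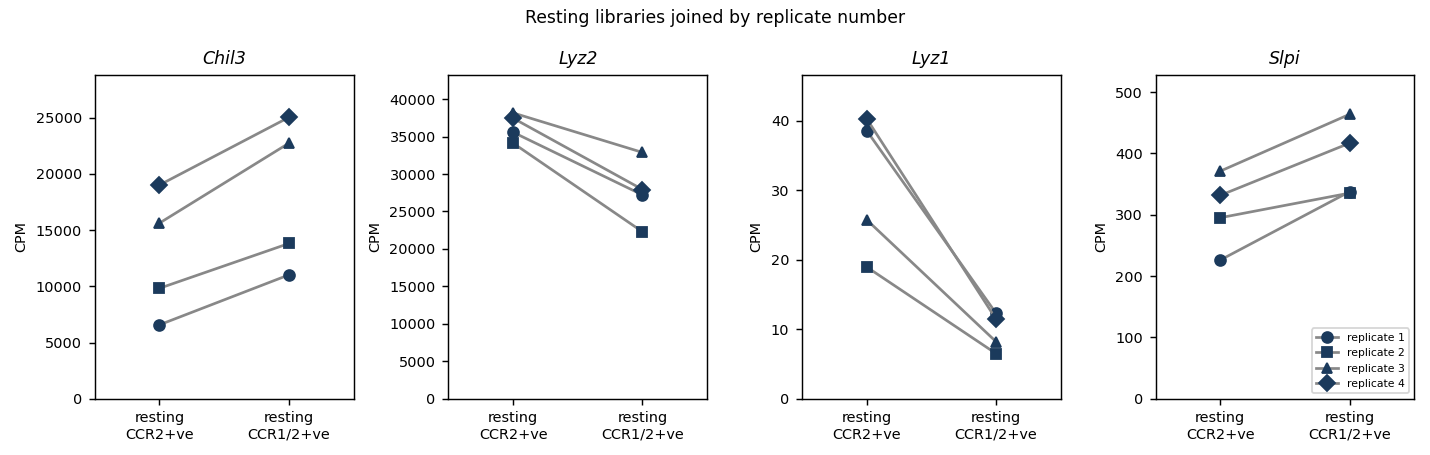
CPM (linear scale from 0) of Chil3, Lyz2, Lyz1 and Slpi in resting CCR2+ve and resting CCR1/2+ve libraries, with lines joining libraries of the same replicate number. All 4 lines rise for Chil3 and Slpi and all 4 fall for Lyz2 and Lyz1, while the ranges overlap for Chil3 and Slpi.

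With inflammation Chil3 fell in both populations. It was at 4283, 6329, 4345 and 1641 CPM in inflamed CCR2+ve libraries, all below the lowest resting one, a decrease of 3.24-fold (−1.69 log2, SE 0.458, adjusted p = 0.0173). This call did not hold without resting CCR2+ve replicate 3 (−1.51 log2, adjusted p = 0.0676) or replicate 4 (−1.36 log2, adjusted p = 0.0673). The block also lost it (adjusted p = 0.143), but numbers were not taken as pairs between resting and inflamed libraries. Same-number correlations were −0.27 to 0.25 for CCR2+ve, against −0.33 to 0.28 for other numbers. In inflamed CCR1/2+ve libraries Chil3 was at 10333, 7307 and 4880 CPM, again below every resting library of that population. The decrease was 2.63-fold (−1.39 log2, SE 0.308, adjusted p = 0.00509, and 0.110 with the block, with the same limit). Against these, the libraries labelled inflamed CCR1 were high and close together, at 15434, 16331, 16495 and 18510 CPM, within the range of both resting groups. They were 4.05-fold above inflamed CCR2+ve (2.02 log2, SE 0.353, adjusted p = 0.00170) and 2.23-fold above inflamed CCR1/2+ve libraries (1.16 log2, SE 0.22, adjusted p = 0.00353), the latter at 0.93 log2 without inflamed CCR1/2+ve replicate 4.

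Chil1 was near the limit of detection in resting monocytes, where 3 reads in a library were taken as the floor. It had 3, 8, 11 and 0 reads in resting CCR2+ve libraries (0.121, 0.285, 0.429 and 0 CPM, the last allowing up to 0.125 CPM) and 2, 13, 14 and 22 reads in resting CCR1/2+ve libraries (0.0656, 0.397, 0.549 and 0.678 CPM). A difference between these was not detectable at this depth (1.05 log2, SE 0.821, adjusted p = 0.445). It rose with inflammation in both populations, to 1.55, 2.23, 3.05 and 3.40 CPM in CCR2+ve (35 to 79 reads) and to 3.20, 5.10 and 4.74 CPM in CCR1/2+ve libraries (66 to 108 reads). The increases were 11.2-fold (3.49 log2, SE 0.574, adjusted p = 0.000122) and 9.45-fold (3.24 log2, SE 0.494, adjusted p = 0.000205), without overlap. The first was 4.14 log2 without resting CCR2+ve replicate 3, since so few reads lay behind the resting level.

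The CCR1-labelled libraries held Chil1 at 753, 628, 738 and 934 CPM (13881 to 19839 reads), 298-fold above inflamed CCR2+ve (8.22 log2, SE 0.234, adjusted p = 4.45e-13) and 175-fold above inflamed CCR1/2+ve libraries (7.45 log2, SE 0.229, adjusted p = 4.93e-10). Ngp, a granule protein of maturing neutrophils, was at 69722 CPM or more in these libraries against 101 to 157 CPM in inflamed CCR2+ve ones. The part of these neutrophil markers in the Chil1 level was not tested.

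Slpi differed by less than the fold cutoff in all comparisons but that of the CCR1-labelled with the inflamed CCR1/2+ve libraries. It was at 226, 295, 371 and 332 CPM in resting CCR2+ve and at 338, 335, 464 and 417 CPM in resting CCR1/2+ve libraries, overlapping but higher in CCR1/2+ve in each of the 4 pairs of the same number (1.49, 1.14, 1.25 and 1.26 times). The difference was 0.42 log2 (SE 0.133, adjusted p = 0.0482), and the block gave an adjusted p of 4.62e-05. Without the block the call was fragile: the adjusted p was between 0.0764 and 0.124 without resting CCR1/2+ve replicate 3 or 4 or resting CCR2+ve replicate 1, 2 or 4.

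With inflammation Slpi fell in both populations by less than the fold cutoff. It was at 228, 188, 187 and 109 CPM in inflamed CCR2+ve (−0.85 log2, SE 0.187, adjusted p = 0.00152), overlapping the lowest resting library, and at 279, 309 and 265 CPM in inflamed CCR1/2+ve libraries (−0.57 log2, SE 0.107, adjusted p = 0.000938), all below the resting ones. Inflamed CCR1/2+ve libraries were all above inflamed CCR2+ve ones, by 0.66 log2 (SE 0.204), without passing the adjusted test (adjusted p = 0.343, unadjusted p = 0.00889). The libraries labelled inflamed CCR1 held 119, 106, 117 and 137 CPM, overlapping inflamed CCR2+ve replicate 4, and were lower by −0.56 log2 (SE 0.171, adjusted p = 0.0133; 0.0533 without inflamed CCR1 replicate 2). Against inflamed CCR1/2+ve libraries they were 2.38-fold lower without overlap (−1.25 log2, SE 0.108, adjusted p = 4.29e-07). Elane, the elastase that Slpi inhibits, was at 22049 to 26197 CPM there and at 135 to 234 CPM in inflamed CCR2+ve libraries (7.09 log2, adjusted p = 4.34e-13). The inhibitor and the protease transcripts thus ran in opposite directions between these groups. They ran the same way between the resting populations and with inflammation in CCR1/2+ve monocytes. Elane was at 152 to 601 CPM in resting CCR2+ve, 1324 to 2636 in resting CCR1/2+ve and 390 to 697 in inflamed CCR1/2+ve libraries.

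Wfdc17, a small secreted WAP protein known from macrophages, was at 357, 276, 260 and 268 CPM in resting CCR2+ve and at 317, 165, 234 and 191 CPM in resting CCR1/2+ve libraries. These overlapped, and the difference of −0.28 log2 (SE 0.182) did not pass (adjusted p = 0.347), although the CCR1/2+ve library was the lower of each pair (0.888, 0.597, 0.901 and 0.713) and the block gave −0.31 log2 (SE 0.0782, adjusted p = 0.00707). Without resting CCR1/2+ve replicate 1 it was −0.50 log2 (adjusted p = 0.0281). It rose with inflammation in both populations, to 404, 544, 400 and 447 CPM in CCR2+ve (0.55 log2, SE 0.129, adjusted p = 0.00234) and to 614, 525 and 786 CPM in CCR1/2+ve libraries (1.37 log2, SE 0.231, adjusted p = 0.00105), without overlap with the resting libraries in either.

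The rise of Wfdc17 was 1.47-fold in CCR2+ve and 2.58-fold in CCR1/2+ve monocytes, and the difference between these changes was 0.77 log2 (SE 0.263), which did not pass (adjusted p = 0.212, unadjusted p = 0.00891). Its level was lowest by far in the CCR1-labelled libraries, at 2.05, 2.22, 0.508 and 1.32 CPM (11 to 49 reads). It was 291-fold lower there than in inflamed CCR2+ve (−8.18 log2, SE 0.327, adjusted p = 1.58e-09) and 418-fold lower than in inflamed CCR1/2+ve libraries (−8.71 log2, SE 0.444, adjusted p = 5.55e-06).

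Wfdc21, its neighbour on chromosome 11 and another small secreted WAP protein, also rose with inflammation but, unlike Wfdc17, was highest in the CCR1-labelled libraries. It was at 1.13, 0.999, 0.664 and 0.416 CPM in resting CCR2+ve (10 to 28 reads) and at 9.95, 6.14, 5.41 and 6.38 CPM in resting CCR1/2+ve libraries (138 to 303 reads), 9.09-fold higher without overlap (3.18 log2, SE 0.32, adjusted p = 7.62e-05). The pairs of the same number differed by 8.84, 6.15, 8.15 and 15.3 times. Wfdc21 is in a list of neutrophil genes that the study drew from these same libraries, so its resting difference is not independent evidence of that list's direction.

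With inflammation Wfdc21 rose to 20.7, 23.6, 8.66 and 5.94 CPM in CCR2+ve (17.1-fold, 4.10 log2, SE 0.458, adjusted p = 5.58e-06) and to 40.3, 29.7 and 41.1 CPM in CCR1/2+ve libraries (4.82-fold, 2.27 log2, SE 0.222, adjusted p = 6.23e-06), clear of the resting libraries of each population. Replicates 3 and 4 of inflamed CCR2+ve lay well under replicates 1 and 2, and all 4 lay under the inflamed CCR1/2+ve libraries. That gap of 1.31 log2 (SE 0.478) did not pass in edgeR (adjusted p = 0.475) and passed in DESeq2 (1.32 log2, adjusted p = 0.0463). The change with inflammation was smaller in CCR1/2+ve than in CCR2+ve monocytes by 1.87 log2 (−1.87, SE 0.58), with an adjusted p of 0.174 in edgeR and 0.0210 in DESeq2 (−1.82 log2), and of 0.0418 in edgeR without inflamed CCR2+ve replicate 4 (−2.12 log2). In the CCR1-labelled libraries Wfdc21 was at 349, 216, 147 and 277 CPM, 17.0-fold above inflamed CCR2+ve (4.09 log2, SE 0.543, adjusted p = 0.000576) and 6.70-fold above inflamed CCR1/2+ve libraries (2.74 log2, SE 0.331, adjusted p = 0.000433).

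Retnlg was also near the floor at rest, with 3, 7, 8 and 5 reads in CCR2+ve (0.121, 0.250, 0.312 and 0.208 CPM) and 1, 2, 5 and 0 reads in CCR1/2+ve libraries (0.0328, 0.0611, 0.196 and 0 CPM, the last allowing up to 0.0924 CPM). It rose with inflammation in both, to 3.81, 3.07, 3.05 and 4.60 CPM in CCR2+ve (63 to 107 reads) and to 4.02, 4.65 and 7.11 CPM in CCR1/2+ve libraries (83 to 162 reads), above every resting library. The increase was 15.2-fold in CCR2+ve monocytes (3.92 log2, SE 0.356, adjusted p = 2.81e-07). In CCR1/2+ve monocytes the fitted value was 6.07 log2 (SE 0.593, adjusted p = 5.84e-06) and 7.05 without resting CCR1/2+ve replicate 3, a size that depends on the prior count, as the 4 resting libraries held 8 reads in all. The difference between these changes was 2.10 log2 (SE 0.719, adjusted p = 0.213 in edgeR; 2.23 log2 and 0.0469 in DESeq2).

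Retnlg in the libraries labelled inflamed CCR1 was at 23.9, 20.8, 21.4 and 25.2 CPM, 6.28-fold above inflamed CCR2+ve (2.65 log2, SE 0.181, adjusted p = 1.92e-09) and 4.31-fold above inflamed CCR1/2+ve libraries (2.11 log2, SE 0.21, adjusted p = 1.88e-06). Its step over the inflamed monocytes was far smaller than that of Chil1, although the inflamed monocyte levels of both genes were similar (3.63 ± 0.738 CPM for Retnlg and 2.56 ± 0.831 CPM for Chil1 in inflamed CCR2+ve, SD, n = 4). Ly6g encodes the neutrophil surface marker excluded in the sort of CCR2+ve and CCR1/2+ve cells, and no gate is described for the CCR1-labelled ones. It was at a median of 14.1 CPM in the CCR1-labelled libraries and 0.414 CPM in inflamed CCR2+ve libraries.

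Chil1, Wfdc17, Wfdc21 and Retnlg thus rose with inflammation in both monocyte populations, while Chil3 and Slpi fell in both. Markers of other cell types differed beside them. The summed neutrophil list was higher in inflamed (1807 to 2061 CPM) than in resting CCR2+ve libraries (936 to 1292 CPM). Of its 11 genes 4 passed both cutoffs, all higher, where 28.6% of all genes passed both. Its largest term was Mmp8 (385 to 696 CPM at rest, 934 to 1132 CPM inflamed), which was low in the CCR1-labelled libraries (5.18 to 12.2 CPM). S100a8 of the same list did not rise (118 to 242 CPM at rest, 36.1 to 159 CPM inflamed). In CCR1/2+ve libraries the sums overlapped (2676 to 3322 CPM at rest and 3091 to 3616 CPM inflamed). Past both cutoffs 5 genes were higher and 2 lower, where 28.5% of all genes passed both. There Mmp8 rose (327 to 579 CPM at rest, 1411 to 1895 CPM inflamed) and S100a8 fell (1545 to 1987 CPM at rest, 308 to 466 CPM inflamed). The summed level of 5 early granule genes was lower in inflamed (955 to 1367 CPM) than in resting CCR1/2+ve libraries (3291 to 6793 CPM). In CCR2+ve libraries it was 445 to 1643 CPM at rest and 351 to 629 CPM inflamed. All 4 tested basophil and mast cell markers were higher past both cutoffs in both inflamed populations, with sums of 104 to 237 CPM in inflamed CCR2+ve against 2.95 to 10.6 CPM at rest and of 125 to 175 CPM in inflamed CCR1/2+ve against 0 to 19.4 CPM at rest. All 5 erythroid markers were lower in both (1.25 to 3.81 against 76.8 to 225 CPM in CCR2+ve, 1.84 to 4.20 against 46.8 to 148 CPM in CCR1/2+ve libraries). Of 6 dendritic cell markers, 4 were lower and 1 higher in both. Of 10 tissue macrophage markers 5 were higher and 0 lower in inflamed CCR2+ve libraries (594 to 822 against 301 to 425 CPM summed). In inflamed CCR1/2+ve libraries 3 of these were higher and 3 lower (652 to 676 against 227 to 312 CPM summed). Of 11 monocyte markers 1 was higher and 3 lower in CCR2+ve, and 3 higher and 2 lower in CCR1/2+ve libraries. Of 3 tested eosinophil markers 2 and 1 were higher, and 0 lower. The part of these markers in the members' differences was not tested.

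Among 37 other genes of the lysozyme, chitinase, WAP and resistin families in the table, 9 passed the filter on low counts. Between the resting populations 0 of the 9 passed, at a median of −0.04 log2, where 4.25% of all genes passed both cutoffs. With inflammation, Chid1, a chitinase-domain protein, rose in both populations, from 36.5 to 42.1 CPM at rest to 117 to 133 CPM in CCR2+ve (1.56 log2, SE 0.1, adjusted p = 6.22e-09), and by 1.51 log2 in CCR1/2+ve monocytes (SE 0.119, adjusted p = 9.83e-07). Chil4, the close relative of Chil3, fell in both, from 22 to 83 reads in resting CCR2+ve to 1 to 3 reads in inflamed CCR2+ve libraries (adjusted p = 4.13e-06), and from 49 to 116 reads to 1 to 4 reads in CCR1/2+ve libraries (adjusted p = 2.29e-05). Wfdc18, a relative of Wfdc17 (81.5% of 222 coding bases), rose in CCR1/2+ve monocytes as Wfdc17 did (1.94 log2, SE 0.338, adjusted p = 0.000555), where Ovgp1, a chitinase-like glycoprotein of the oviduct, was lower (−1.30 log2, SE 0.407, adjusted p = 0.0212).

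The relatives parted further in the libraries labelled inflamed CCR1. Chit1, an active chitinase, was at 211 to 254 CPM there (4561 to 5392 reads) and had 0 to 3 reads in inflamed CCR2+ve and 4 to 14 reads in inflamed CCR1/2+ve libraries (adjusted p = 1.88e-15 and 4.14e-12). Wfdc18 had 0 reads in each of these 4 libraries, which allows up to 0.136 to 0.141 CPM, and 39 to 75 reads in inflamed CCR2+ve libraries, so it was not detected at this depth, where its relative Wfdc17 had 11 to 49 reads. Chid1 was lower by −1.79 log2 (SE 0.114, adjusted p = 7.91e-10), and Chil5, another chitinase-like gene, was higher at 12 to 22 reads against 0 to 2 reads (adjusted p = 8.07e-05). Of the 9 relatives, 3 were higher and 2 lower past both cutoffs against inflamed CCR2+ve, at a median of 0.03 log2. Of all genes 31.3% passed both there.

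**Figure D4:**
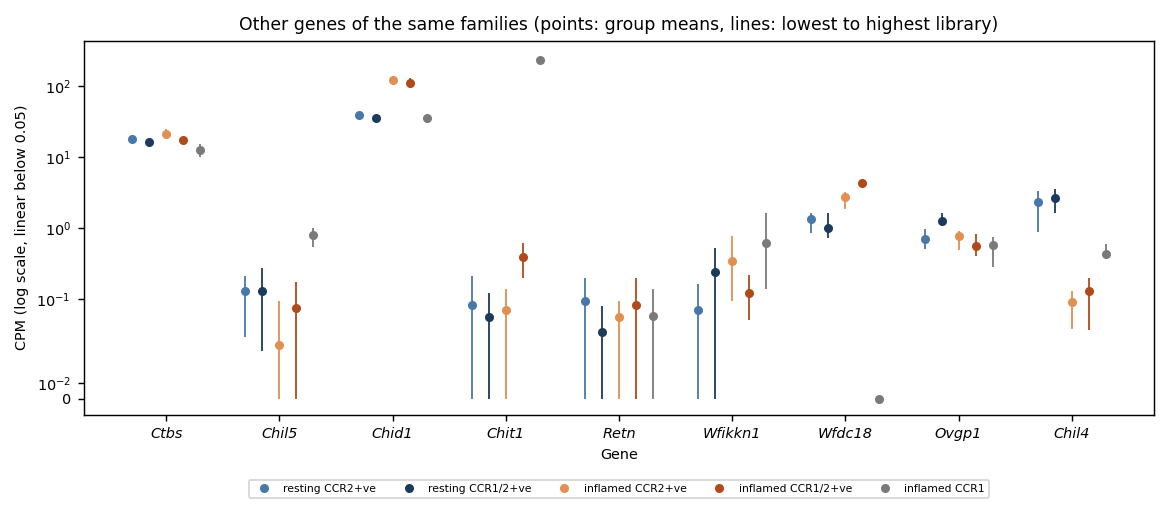
CPM (log scale, linear below 0.05) of the 9 tested relatives of the lysozyme, chitinase, WAP and resistin families, with a point at each group mean and a line from the lowest to the highest library. Chit1 at 211 to 254 CPM stands out in the libraries labelled inflamed CCR1, where Wfdc18 is at 0.

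Of 22 other tested genes for secreted myeloid proteins, 3 were higher and 0 lower past both cutoffs in resting CCR1/2+ve than in resting CCR2+ve monocytes, at a median of 0.12 log2 (4.25% of all genes passed both). They were Fcnb, a ficolin of granules (2.43 log2, adjusted p = 1.58e-05), Lcn2, which binds bacterial siderophores (2.23 log2, adjusted p = 0.00170), and Cst7, a cystatin (1.75 log2, adjusted p = 0.00523). With inflammation 7 of 22 rose and 1 fell past both cutoffs in CCR2+ve monocytes (median 0.51 log2), where 28.6% of all genes passed both. Cfp, the complement factor properdin, and Hp, haptoglobin, rose by 1.30 and 1.09 log2 (adjusted p = 2.04e-08 and 4.93e-07). In CCR1/2+ve monocytes 9 rose and 1 fell (median 1.10 log2), where 28.5% of all genes passed both. Cfp rose there by 1.34 and Hp by 1.20 log2 (adjusted p = 2.69e-07 and 1.96e-06). Pglyrp1, a peptidoglycan recognition protein and so a neighbour of lysozyme in function, fell in CCR2+ve monocytes (−1.77 log2, adjusted p = 4.31e-07) and was 2.09 log2 higher in inflamed CCR1/2+ve than in inflamed CCR2+ve monocytes (adjusted p = 6.87e-05).

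Of 11 tested serine proteases and protease inhibitors of several kinds, 2 were higher and 1 lower past both cutoffs in resting CCR1/2+ve monocytes (median 0.11 log2). Of all genes 4.25% passed both there. Elane was 2.45 log2 higher (SE 0.448, adjusted p = 0.00779) and the related protease Prtn3 1.78 log2 higher (adjusted p = 0.00197), and Timp2, a metalloproteinase inhibitor, was lower (−1.69 log2, adjusted p = 0.00207). With inflammation Elane and Prtn3 fell in CCR1/2+ve monocytes (−1.98 and −1.21 log2, adjusted p = 0.000827 and 7.95e-05), with 2 of 11 higher and 2 lower (28.5% of all genes). In CCR2+ve monocytes 1 of 11 was higher past both cutoffs, Timp1, at 4 to 16 reads against 0 to 5 (adjusted p = 0.0135), and 0 were lower (28.6% of all genes).

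The change with inflammation was compared between the populations in a fit of 15 libraries without those labelled inflamed CCR1. By edgeR 0 of the 8 members differed, where 0.214% of all genes passed both cutoffs and 0.397% the p cutoff. An unadjusted p below 0.05 was found for 4 of them (Lyz1, Wfdc17, Wfdc21 and Retnlg), again without a share of all genes to set beside it. DESeq2 called 3 past both cutoffs (Lyz1, Wfdc21 and Retnlg), and 151 of all genes. Lyz2 differed by 0.28 log2 (SE 0.145, adjusted p = 0.438). For Chil3 (0.26 log2, SE 0.595), Chil1 (−0.30, SE 0.789) and Slpi (0.24, SE 0.253) the differences were below their standard errors.

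The genes most like each member over the 19 libraries were named by the root mean square difference of their centred log2 CPM, among 7685 genes with a mean of at least 10 CPM. For Lyz2 they were Dnase1l1, Btg2 and Prcp, at 0.16, 0.16 and 0.17 log2, where Lyz2 itself varied with an SD of 0.89. For Chil3 they were Id2, Hnmt and Anxa1 (0.44, 0.45 and 0.50; SD of Chil3 1.02), and for Lyz1 they were Ypel2, Txnip and Tdrd7 (0.41, 0.42 and 0.43; SD 1.33). For Slpi they were I830127L07Rik, Magohb and Sdhd (0.21, 0.31 and 0.32; SD 0.69), and for Wfdc17 they were Gm5150, Ms4a4c and Ifi204 (0.34, 0.46 and 0.50; SD 3.39). For Chil1 the nearest was Ngp (0.86; SD 4.41), for Wfdc21 Olfml2b (0.77; SD 2.87) and for Retnlg Il18rap (1.20; SD 2.95). Of the members themselves the closest pair was Lyz2 with Slpi (0.65), closer than Lyz2 with Lyz1 (0.76). The libraries share their 5 groups, so these are descriptions of a common pattern over groups.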

How the data were processed

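Libraries of bone marrow cells were grouped by the resting or inflamed state and receptor label of their titles. The authors assessed reads with fastp, aligned them to GRCm38 with STAR 2.7.10a (named in the submitters' processing notes), kept uniquely aligned reads with 35 or more matched bases, and deposited raw read counts per Ensembl gene, without normalization. The strand counted is not given in the sources used here. Of 20 columns of counts, 1, named as replicate 1 of the inflamed CCR1/2 group, could not be tied to a sample and stayed out, which leaves that group at 3 libraries. Whether replicates were separate animals is not stated, so p-values measure the spread between libraries, which may be technical. Without molecular identifiers, floors (3 reads) cover counting error only.

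Genes averaging 1 read or more per library were fitted in edgeR 4.0.16 (R 4.3.3; TMM, robust quasi-likelihood F test, two-sided, only the groups compared), adjusted by Benjamini-Hochberg. SEs were derived from F. Exact two-sided permutation tests used CPM. Same-number libraries correlated, in deviations from group means over 7685 genes, at 0.30 to 0.61 (resting) and 0.14 to 0.25 (inflamed CCR1 against CCR2+ve), so numbers were taken as pairs there, and a block was fitted. In the latter it changed no member's call. Alternatives included DESeq2 1.42.0, other filters and scalings, and each library left out in turn. The code was tested on simulated data.

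Exons are from GENCODE M21, promoters from RefSeq (GRCm38.p6, found for 7 of 8 members) and alignments from Biopython 1.88. Apart from the members, genes named are up to 3 per list and direction with the smallest p past both cutoffs, the most alike genes, and markers. Members and lists were chosen with earlier results of these data known. Some list genes are not analysed here.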

Additional observations from a re-analysis of the deposited data

Results flagged for a closer look

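Among 32 groups of 4 libraries tested for a library far from the rest, 1 stood apart: Wfdc17 in resting CCR2+ve replicate 1, at 357 CPM against 260 to 276 CPM in the other 3 libraries. By the 95% limit of Dixon's test, chance alone would mark about 1 group in 20.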

How the results depend on the processing

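Of 805 values of single members under the alternatives, 765 kept their direction and their side of the p cutoff, 13 lost and 18 gained an adjusted p below 0.05, and 9 changed sign. The changes of sign were all in values near 0. For Lyz2 they were 0.00 log2 in one fit of 19 libraries, 0.03 without resting CCR2+ve replicate 3 and 0.02 without replicate 4 (inflamed against resting CCR2+ve, −0.15 to 0.03 with any library left out), and 0.01 without inflamed CCR1/2+ve replicate 2 and 0.06 without inflamed CCR2+ve replicate 3 (inflamed CCR1/2+ve against CCR2+ve, −0.09 to 0.06). For the interaction they were 0.02 and 0.18 for Chil1 without replicate 4 of resting CCR1/2+ve or CCR2+ve (range −0.87 to 0.18), and −0.03 and 0 for Chil3 without inflamed CCR1/2+ve replicate 2 or inflamed CCR2+ve replicate 4 (range −0.03 to 0.51).

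Without the fold cutoff the genes called were 3149 (792 with it) between resting populations, 8921 (5327) for inflamed against resting CCR2+ve, 8585 (5321) for inflamed against resting CCR1/2+ve, 8972 (5830) and 8061 (5173) for the CCR1-labelled libraries against inflamed CCR2+ve and CCR1/2+ve, and 74 (40) for the interaction. Between inflamed CCR1/2+ve and CCR2+ve the 27 genes called became 53 without a filter, 53 in one fit of 19 libraries, 106 with DESeq2 (1 member) and 80 with the replicate block, and higher calls went from 70.4% to 41.5% with DESeq2 and 43.8% with the block. The interaction's 40 became 151 with DESeq2 (3 members) and 77 with the block, with higher calls at 42.5%, and 59.6% with RLE and 54.3% with DESeq2. With each library left out, genes called ranged from 518 (without resting CCR2+ve replicate 4) to 1012 between resting populations, from 15 to 42 between inflamed populations, and from 0 (without inflamed CCR1/2+ve replicate 3) to 104 for the interaction, where 0 to 1 members passed. The cause was not tested. For the pairs of groups whose numbers did not pair (same-number correlations from −0.32 to 0.50), the block lost both calls of Chil3 with inflammation and gained Lyz2 in CCR1/2+ve monocytes (adjusted p = 0.0307).

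The resting levels of Chil1 and Retnlg rest on 0 to 22 reads per library. DESeq2 gave no adjusted p for either gene in the resting comparison, and filterByExpr left out Retnlg there. All 19 libraries in one fit left Slpi short of the cutoff at rest (adjusted p = 0.212) and with inflammation in CCR1/2+ve monocytes (0.0543).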
